A study of Mus musculus with 9 samples.

Results

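A set of 8 genes of the retinal pigment epithelium and its visual cycle was followed across 9 retinal pools: Rpe65, Lrat, Rdh5, Rgr, Rlbp1, Stra6, Best1 and Ttr. They were chosen by name, and the probes were those whose transcript accession belongs to one of these genes. Each of the 8 genes had 1 probe, out of 39429 probes on the array. Probes for 7 of them were well above background on all 9 arrays, and the probe for Best1 was well above background on 0 of 9 arrays. The study measured retinal RNA of adult male C57BL/6 mice on one-colour Agilent arrays, with 3 arrays in each of 3 groups. The AAP group had received AAP and the HAN group HAN, a pair of peptides that the series title describes as binding vascular endothelial growth factor (VEGF) with high affinity. The PBS group, the negative control, had received phosphate-buffered saline. All were given into the vitreous of the right eye, the retinas were taken 7 days later, and the labels word a dose of 1 µM for all 3 groups, PBS included. Each group had 12 mice and 4 retinas were pooled into a sample, so each array stands for 4 eyes and p-values measure the spread between 3 such pools.

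The visual cycle is the enzyme pathway that restores the light-sensitive 11-cis retinal after it has been bleached in the photoreceptors. Most of its steps take place in the retinal pigment epithelium (RPE), a single layer of pigmented cells that lies against the outer segments and belongs to the eye cup behind the neural retina. When a retina is dissected the layer may come away with it or stay behind with the choroid, so in pooled retinas fewer pigment epithelial cells and less RNA per cell cannot be told apart. Blood-borne retinol reaches the RPE bound to transthyretin (Ttr) and retinol-binding protein and enters through the receptor Stra6. Lrat esterifies it, Rpe65 converts the ester to 11-cis retinol, Rdh5 oxidises that to 11-cis retinal, and Rlbp1 carries the 11-cis products. Rgr is an opsin of RPE and Mueller glia that binds all-trans retinal, and Best1 is a chloride channel of the basolateral membrane of the RPE.

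The promoters of 3 measured genes are shown, which carry motif letters of the factors known to act on RPE genes. These letters are the E-box CACGTG or CATGTG, bound by the pigment cell factor MITF, and TAATCC, the core bound by the homeobox factors OTX2 and CRX. The window of Best1, which was not measured, also held a match and is not shown. Windows were searched for 7 of the 8 genes (RefSeq, build GRCm38.p6), and Ttr was left out of the search. Each window was the 250 bases before the start site, read 5′ to 3′ on the gene's own strand. Both strands were searched for CACGTG (its own reverse complement), for CATGTG, whose reverse complement is CACATG, and for TAATCC, whose reverse complement is GGATTA. Capitals mark the matches, none of which overlapped another in these windows.
Rpe65: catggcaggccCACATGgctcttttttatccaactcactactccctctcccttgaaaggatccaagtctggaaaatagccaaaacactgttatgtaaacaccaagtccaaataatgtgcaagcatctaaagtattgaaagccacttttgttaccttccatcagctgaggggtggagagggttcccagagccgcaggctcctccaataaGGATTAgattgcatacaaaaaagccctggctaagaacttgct
Rgr: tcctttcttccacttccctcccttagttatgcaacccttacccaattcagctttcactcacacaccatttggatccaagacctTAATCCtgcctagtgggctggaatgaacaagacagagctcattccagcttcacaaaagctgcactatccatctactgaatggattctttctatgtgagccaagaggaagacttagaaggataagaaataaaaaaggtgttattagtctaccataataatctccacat
Rlbp1: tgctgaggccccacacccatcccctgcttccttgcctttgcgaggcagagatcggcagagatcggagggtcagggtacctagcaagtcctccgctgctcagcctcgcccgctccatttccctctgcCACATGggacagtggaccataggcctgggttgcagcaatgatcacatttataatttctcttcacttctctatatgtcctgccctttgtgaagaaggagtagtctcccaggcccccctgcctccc

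The Rpe65 window (chr3:159598931-159599180, plus strand) held CACATG with its first base at position -239 and GGATTA at -42, counted from the base before the start as -1. In the Rgr window (chr14:37049015-37049264, minus strand) TAATCC lay at -167, and in the Rlbp1 window (chr7:79387028-79387277, minus strand) CACATG lay at -124. Best1 held TAATCC at -227, while the windows of Lrat, Rdh5 and the 4 start sites of Stra6 held none of these letters. Of 32851 promoter windows of the same length, 6.02% held CACGTG, 12.3% held CATGTG or CACATG and 6.25% held TAATCC or GGATTA. A match of letters is a description of the window and not a binding site.

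Array facts that bear on the values are few. Array brightness, taken as the 75th percentile of processed signal, was 1340 in the dimmest (AAP 3) and 2349 in the brightest (PBS 1). Spots well above background made up 71.6% to 79.2%. Pearson's r across genes lay between 0.980 and 0.995 within groups and between 0.978 and 0.995 for arrays of different groups. The 9 arrays sat on 3 slides: slide 1 held AAP 1 and all 3 PBS arrays, slide 2 held AAP 2, AAP 3, HAN 1 and HAN 2, and slide 3 held HAN 3 alone. The number of arrays limits the precision.

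Levels are given as log2 processed signal minus the 75th percentile of the array, so that 0 is the percentile itself and 1 unit is a doubling; they compare arrays for one probe and not one probe with another. Among the enzymes, Rpe65, the retinoid isomerase, stood at 3.10, 1.67 and 1.81 in AAP 1, 2 and 3, at 1.55, 1.90 and 1.20 in HAN 1, 2 and 3, and at 1.89, 1.85 and 1.75 in PBS 1, 2 and 3. Lrat, lecithin retinol acyltransferase, stood at -0.22, -1.47 and -1.38 in AAP, at -1.37, -1.70 and -2.31 in HAN, and at -1.19, -1.47 and -1.54 in PBS. Rdh5, 11-cis retinol dehydrogenase, stood at 3.91, 2.85 and 3.14 in AAP, at 2.72, 2.88 and 2.27 in HAN, and at 2.93, 2.80 and 2.79 in PBS. In each of these 3 enzymes AAP 1 was the highest of the 9 arrays, HAN 3 was the lowest, and the ranges of both peptide groups reached into the PBS range.

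The retinal opsin Rgr stood at 3.55, 2.26 and 2.43 in AAP, at 2.14, 2.11 and 1.43 in HAN, and at 2.24, 2.24 and 2.14 in PBS. Its groups did not overlap in any of the 3 comparisons, but the margins were narrow: the lowest AAP array stood at 2.26 and the highest PBS array at 2.24, and the highest HAN array and the lowest PBS array both rounded to 2.14. Rlbp1, the carrier of 11-cis retinoids, which is also a Mueller glia gene, stood at 3.64, 3.66 and 3.57 in AAP, at 3.23, 3.53 and 3.53 in HAN, and at 3.56, 3.72 and 3.53 in PBS. It was the exception among the measured genes: its highest array was PBS 2, its lowest was HAN 1, and AAP 1 and HAN 3 lay close to the other pools.

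Of the genes for retinol uptake, the receptor Stra6 stood at 0.37, -0.67 and -0.67 in AAP, at -0.88, -0.41 and -1.07 in HAN, and at -0.39, -0.53 and -0.70 in PBS. Ttr, the plasma carrier that the RPE also makes, stood at 5.05, 4.13 and 4.02 in AAP, at 3.82, 3.86 and 3.38 in HAN, and at 4.13, 4.06 and 4.19 in PBS. All 3 HAN arrays of Ttr lay below all 3 PBS arrays, and AAP 1 alone lay above them. Best1 was not well above background on any array and has no fold here, so the channel that is one of the defining RPE transcripts was not measured by its probe; the 7 other genes were.

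**Figure D1:**
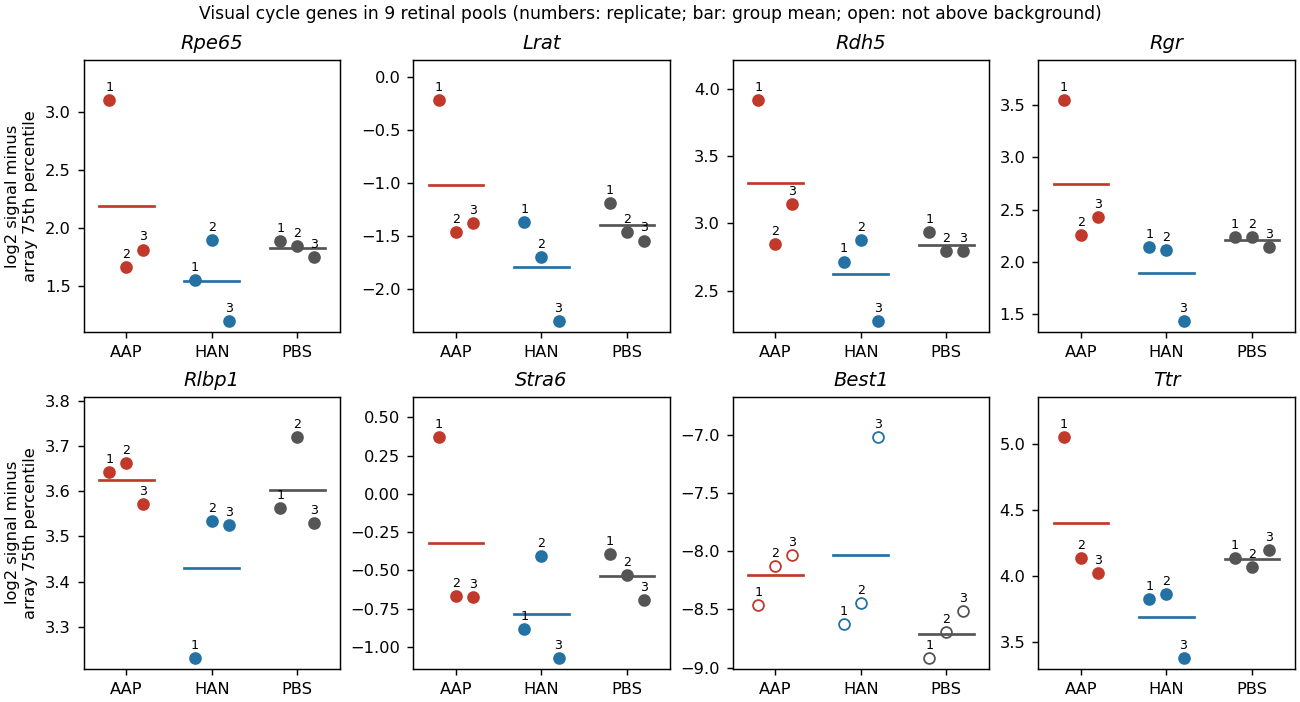
Level of each of the 8 genes (vertical axis, log2 processed signal minus the 75th percentile of the array) in the 3 AAP, 3 HAN and 3 PBS arrays, with the replicate number beside each point, a bar at the group mean and open circles for values not well above background. AAP 1 is the highest and HAN 3 the lowest point for Rpe65, Lrat, Rdh5, Rgr, Stra6 and Ttr, while Rlbp1 spans 0.49 log2 units in all and Best1 is not above background anywhere.

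Over the 9 arrays the range was 2.12 log2 units for Rgr, 2.09 for Lrat, 1.90 for Rpe65, 1.68 for Ttr, 1.64 for Rdh5 and 1.44 for Stra6, against 0.49 for Rlbp1. The median gene on the array had a range of 0.45 log2 units, and between 90.6% (Stra6) and 95.6% (Rgr) of genes had a smaller range than each of these 6, against 54.7% for Rlbp1. Most of that range lay in AAP 1 and HAN 3. Among the other 7 arrays the range was 0.32 for Rgr, 0.35 for Rpe65, 0.37 for Ttr, 0.42 for Rdh5, 0.49 for Stra6 and 0.51 for Lrat, and that of Rlbp1 was still 0.49. AAP 1 was the highest array in 6 of 7 measured members, where 8.28% of all genes had it highest, and HAN 3 was the lowest in 6 of 7, where 11.1% of all genes had it lowest.

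In fold terms, AAP 1 stood at 2.54 times the PBS mean for Rgr, 2.41 for Rpe65, 2.27 for Lrat, 2.10 for Rdh5, 1.90 for Ttr and 1.88 for Stra6. Its value for Rlbp1 was 1.03 times the PBS mean. HAN 3 stood at 0.533 times the PBS mean for Lrat, 0.582 for Rgr, 0.593 for Ttr, 0.645 for Rpe65, 0.675 for Rdh5 and 0.692 for Stra6, and at 0.947 times for Rlbp1. These are values of single pools. The mean log2 difference from PBS over the 6 genes other than Rlbp1, which was set apart after its values were seen, was 1.12, -0.05 and 0.05 in AAP 1, 2 and 3 and -0.18, -0.07 and -0.70 in HAN 1, 2 and 3. It was 0.09, -0.02 and -0.07 in PBS 1, 2 and 3.

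The comparison of AAP with PBS asked whether these RPE genes differ after AAP. The group means of all 7 measured genes lay above PBS, with a median difference of 0.36 (log2), and none passed the test: limma, with a mean per group over 9 arrays and Benjamini-Hochberg adjustment over 23862 genes, called 0 of 7 at an adjusted p under 0.05, and 0 of 7 had an unadjusted p under 0.05, where 6.78% of all genes did. Over all genes 0.00419% were called, the median difference was 0.00, and 50.9% of genes lay above 0. Rgr averaged 2.75 ± 0.70 in AAP and 2.21 ± 0.06 in PBS (SD, n = 3 each), a difference of 0.54 (95% interval -0.24 to 1.32, limma adjusted p = 0.789). Rdh5 averaged 3.30 ± 0.55 in AAP and 2.84 ± 0.08 in PBS, a difference of 0.46 (-0.16 to 1.08, limma adjusted p = 0.768). The spread within AAP was thus several times that within PBS in both genes.

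The isomerase Rpe65 averaged 2.19 ± 0.79 in AAP and 1.83 ± 0.07 in PBS, a difference of 0.36 (-0.47 to 1.19). Lrat averaged -1.02 ± 0.69 in AAP and -1.40 ± 0.19 in PBS, a difference of 0.38 (-0.45 to 1.21). In both enzymes AAP 2 and AAP 3 lay close to the PBS arrays. Ttr averaged 4.40 ± 0.57 in AAP and 4.13 ± 0.07 in PBS, a difference of 0.27 (-0.34 to 0.88). Stra6 averaged -0.32 ± 0.60 in AAP and -0.54 ± 0.15 in PBS, a difference of 0.22 (-0.47 to 0.90). Again the AAP mean stood above PBS through AAP 1 alone. Rlbp1 averaged 3.63 ± 0.05 in AAP and 3.60 ± 0.10 in PBS, a difference of 0.02 (-0.20 to 0.25), the narrowest interval of the 7. The limma adjusted p of these 5 genes ran from 0.856 (Lrat) to 0.976 (Rlbp1).

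Most of each AAP difference other than that of Rlbp1 lay in AAP 1. Without it, the difference of AAP from PBS was -0.09 for Rpe65, -0.02 for Lrat, 0.15 for Rdh5, 0.14 for Rgr, -0.13 for Stra6 and -0.06 for Ttr, with Rlbp1 at 0.01. The median over the 7 genes was then -0.02. Groups did not overlap for 1 of 7 genes, Rgr (AAP higher), where 6.44% of all genes had every AAP array above every PBS array. The exact two-sided permutation p for Rgr was 0.1, the smallest that 3 arrays against 3 allow.

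HAN was compared with PBS for the same question. The means of all 7 genes lay below PBS, by a median of -0.28, and limma called 0 of 7, where 0.00419% of all genes were called. At an unadjusted p under 0.05 there were 0 of 7, where 9.67% of all genes passed. The median of all genes was 0.00 and 48.6% of genes lay below 0. Both peptide comparisons use the same 3 PBS arrays, so they are not independent of each other. Ttr averaged 3.69 ± 0.27 in HAN and 4.13 ± 0.07 in PBS, a difference of -0.45 (-1.06 to 0.17, limma adjusted p = 0.613). Rlbp1 averaged 3.43 ± 0.17 in HAN and 3.60 ± 0.10 in PBS, a difference of -0.17 (-0.40 to 0.05, limma adjusted p = 0.597). All 7 intervals included 0.

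For the esterifying and isomerising enzymes, Lrat averaged -1.79 ± 0.48 in HAN and -1.40 ± 0.19 in PBS, a difference of -0.39 (-1.22 to 0.44). Rpe65 averaged 1.55 ± 0.35 in HAN and 1.83 ± 0.07 in PBS, a difference of -0.28 (-1.11 to 0.55). HAN 3 was the lowest array in both, and HAN 1 lay within the PBS range for Lrat and HAN 2 just above it for Rpe65. Rgr differed by -0.31 (-1.10 to 0.47), at 1.89 ± 0.40 in HAN and 2.21 ± 0.06 in PBS. Rdh5 differed by -0.22 (-0.84 to 0.40), at 2.62 ± 0.31 in HAN and 2.84 ± 0.08 in PBS. Stra6 differed by -0.25 (-0.93 to 0.44), at -0.79 ± 0.34 in HAN and -0.54 ± 0.15 in PBS. The limma adjusted p of these 5 genes ran from 0.766 (Lrat) to 0.838 (Rpe65). Groups did not overlap for 2 of 7 genes, Rgr and Ttr, with HAN lower, where 10.4% of all genes had every HAN array below every PBS array; the exact permutation p was 0.1 for both.

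HAN 3 was the lowest array in 6 of these genes, and without it the difference of HAN from PBS was -0.11 for Rpe65, -0.13 for Lrat, -0.04 for Rdh5, -0.08 for Rgr and -0.10 for Stra6. Ttr stood at -0.29 and Rlbp1 at -0.22 without HAN 3, and the median over the 7 genes was -0.11. HAN 3 is the only array on its slide, so the pool and the slide cannot be told apart, and HAN and PBS share no slide.

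Set against each other, AAP stood above HAN in all 7 genes, by a median of 0.68 where all genes had a median of 0.00 and 50.3% lay above 0. The limma test called 0 of 7 after adjustment, where 0% of all genes were called; 3 of 7 had an unadjusted p under 0.05 with AAP higher, where 4.27% of all genes did. That count was 0 without HAN 3. It was 1 without AAP 1, without PBS 2, without PBS 3, without AAP 1 and HAN 3 together, with slide as a fixed block or with quantile normalisation. It was 2 with the normexp background correction or without PBS 1, 4 with the replicate number as a block and 5 without AAP 2. Rgr differed by 0.85 (95% interval 0.07 to 1.63), Ttr by 0.72 (0.11 to 1.33) and Rdh5 by 0.68 (0.06 to 1.30), each with a limma adjusted p = 0.574. These 3 were the opsin, the plasma carrier and the last RPE enzyme of the cycle, and none passed once the number of genes tested was taken into account. The remaining differences were 0.77 (-0.06 to 1.60) for Lrat, 0.65 (-0.19 to 1.48) for Rpe65, 0.46 (-0.22 to 1.15) for Stra6 and 0.19 (-0.03 to 0.42) for Rlbp1, with limma adjusted p of 0.575 to 0.618. Every AAP array lay above every HAN array for Rgr, Ttr and Rlbp1 (exact permutation p = 0.1 each), 3 of 7 genes, where 7.51% of all genes did.

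**Figure D2:**
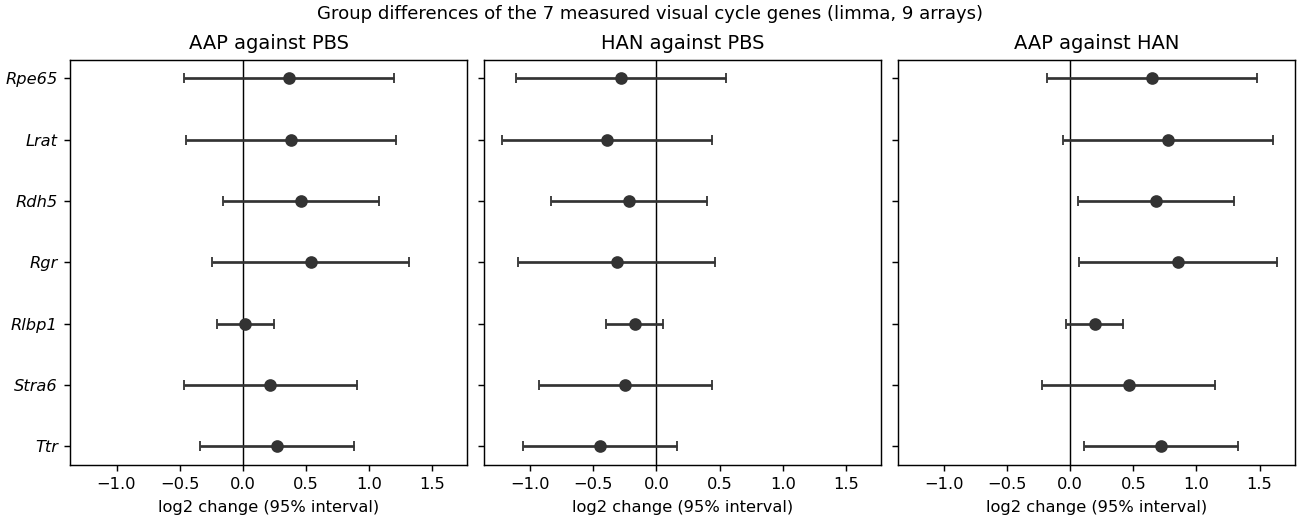
Difference between group means on the log2 scale (points) with 95% intervals (lines) for the 7 measured genes in 3 panels (AAP against PBS on the left, AAP against HAN on the right), from the limma model on 9 arrays. All intervals include 0 in the comparisons with PBS, and those of Rdh5, Rgr and Ttr lie above 0 in AAP against HAN before adjustment for the number of genes tested.

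The slides divide these differences. Within slide 1, AAP 1 against the 3 PBS arrays differed by a median of 1.07 over the 7 genes (0.04 to 1.34). Within slide 2, AAP 2 and AAP 3 against HAN 1 and HAN 2 differed by a median of 0.20: 0.24 for Ttr, 0.23 for Rlbp1, 0.22 for Rgr, 0.20 for Rdh5, 0.12 for Lrat, 0.02 for Rpe65 and -0.03 for Stra6. When slide enters the model as a fixed term, the difference of AAP from PBS is that of AAP 1 within slide 1. That fit called 2 of 7 genes as higher, Rgr (1.34, limma adjusted p = 0.0192) and Ttr (0.92, limma adjusted p = 0.0428), where it called 0.189% of all genes. It sets a lone AAP array against PBS and takes its spread from the other arrays, on the assumption that AAP 1 varies as they do. With slide as a random block neither was called (limma adjusted p = 0.886 for Rgr and 0.915 for Ttr). The other 5 did not pass with slide as a fixed term. In that fit Rpe65 stood at 1.27, Rdh5 at 1.07, Lrat at 1.18, Stra6 at 0.91 and Rlbp1 at 0.04.

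Across pools the measured genes other than Rlbp1 varied together, mainly through AAP 1 and HAN 3. Over 42 tests (Pearson and Spearman for 21 pairs, exact permutation, Benjamini-Hochberg adjusted), the 15 pairs among Rpe65, Lrat, Rdh5, Rgr, Stra6 and Ttr had r from 0.88 to 0.99 over 9 arrays, all 15 with an adjusted permutation p of 0.0231 or less. By rank the same 15 pairs had rho from 0.40 to 0.93, and 3 of 15 had an adjusted permutation p under 0.05: Rpe65 with Stra6 (rho 0.93, adjusted p = 0.0105), Rpe65 with Rdh5 and Rdh5 with Stra6 (rho 0.82, adjusted p = 0.0251 each). The 2 arrays farthest from the median were AAP 1 and HAN 3 for all 15 pairs, and without them r ran from -0.12 to 0.91. The relation thus rests on those arrays for most pairs. Rpe65 and Stra6 kept r = 0.91 and Rdh5 and Rgr r = 0.83 over the other 7 arrays, while Rpe65 and Lrat stood at r = -0.12. A single slide or group holds under 6 arrays, too few for a value of its own. With each group centred on its mean, the 15 pairs had r from 0.84 to 0.98 over the 9 arrays, AAP 1 and HAN 3 included, and the 6 pairs with Rlbp1 from -0.32 to 0.19.

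Among the 15 pairs without Rlbp1, the ratio between genes varied less than the genes alone over the 9 arrays, AAP 1 and HAN 3 included. Over the other 7 arrays the genes spanned only 0.32 (Rgr) to 0.51 (Lrat) log2 units, and the SD of the ratio was not computed there. The SD of the log2 ratio over 9 arrays was 0.13 for Lrat to Rgr and reached 0.27 among the 15 pairs, while the genes alone had SDs of 0.41 (Stra6) to 0.55. Pairs with Rlbp1 had SDs of the log2 ratio of 0.37 to 0.54, with r of 0.19 to 0.43 (adjusted permutation p from 0.248 to 0.529). By rank 1 of the 6, Rgr with Rlbp1, had an adjusted permutation p under 0.05 (rho 0.77, adjusted p = 0.0473).

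**Figure D3:**
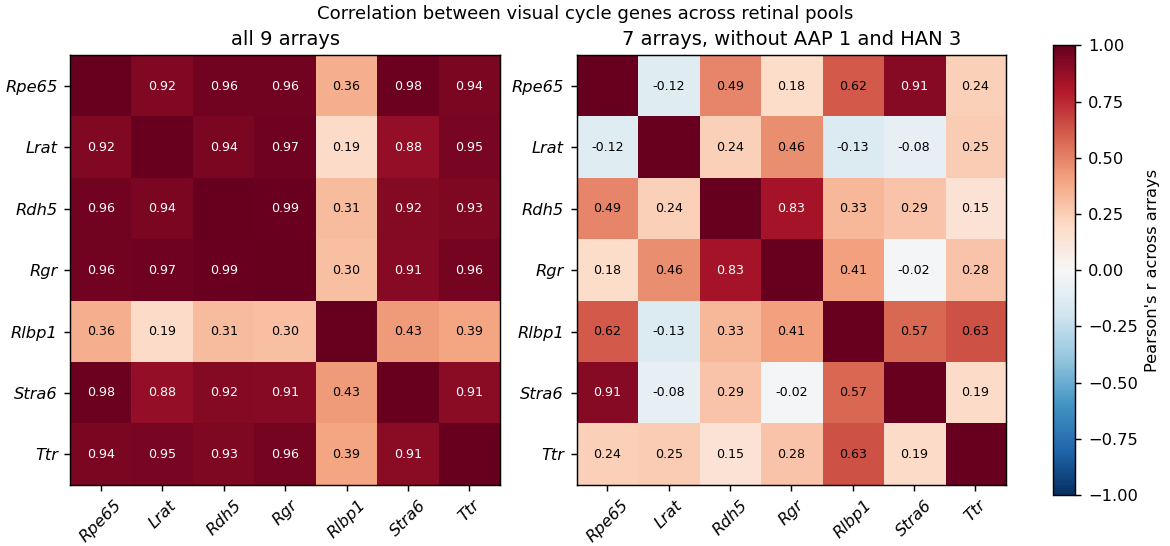
Pearson's r between each pair of the 7 measured genes over all 9 arrays (left) and over the 7 arrays without AAP 1 and HAN 3 (right), with the value in each cell and colour running over -1 to 1. Pairs without Rlbp1 lie between 0.88 and 0.99 on the left and between -0.12 and 0.91 on the right.

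Other genes of the pathway and of the RPE were set beside the 8. They were counted as measured where a probe passed the background filter, well above background on all arrays of at least 1 group. The photoreceptors complete the cycle: they hold the opsins, clear all-trans retinal through the flippase Abca4 and reduce it with Rdh8 and Rdh12. The list set up for this side of the cycle had 12 measured genes, with Rdh11, Rdh13, Rdh14, Dhrs3 and Retsat also among them. Of these 12, limma called 0 in AAP against PBS (4 above and 8 below 0, median -0.04). In HAN against PBS it called 0 (0 above and 12 below 0, median -0.08). Abca4 differed by 0.13 in AAP and -0.23 in HAN against PBS. AAP 1 was the highest array for 0 of these 12 genes, and HAN 3 the lowest for 5. The mean of the list in AAP 1 was -0.09 from the PBS mean, where the 6 visual cycle genes other than Rlbp1 averaged 1.12.

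Of 14 other RPE markers measured (Tfec did not pass the background filter), limma called 0 in each of the 3 comparisons. In AAP against PBS 10 lay above and 4 below 0 (median 0.14), in HAN against PBS 4 lay above and 10 below (median -0.12), and in AAP against HAN 12 lay above and 2 below (median 0.26). AAP 1 was the highest array for 9 of the 14 and HAN 3 the lowest for 7. Slc16a8, the lactate transporter of the RPE, stood 1.00 above the PBS mean in AAP 1 and -0.79 from it in HAN 3. Rrh, the RPE opsin known as peropsin, stood at 0.41 in AAP 1 and -0.24 in HAN 3, and the keratin Krt8, which other epithelia also express, at 1.90 and -0.82. Other markers did not share this order: in AAP 1 11 of 14 lay above the PBS mean, and the 3 below it, named after their values were seen, were Cldn19 (-0.46), Otx2 (-0.01) and Krt18 (-0.10). In HAN 3 10 of 14 lay below the PBS mean and 4 above it, Cldn19 at 0.16 and Otx2 at 0.08 among them. Ermn, the marker with the smallest p in AAP against PBS (limma adjusted p = 0.625), stood at 0.28, 0.31 and 0.40 in AAP 1, 2 and 3. The mean of the list was 0.51, 0.03 and -0.08 in AAP 1, 2 and 3, -0.13, 0.08 and -0.28 in HAN 1, 2 and 3, and 0.08, -0.08 and 0.01 in PBS 1, 2 and 3.

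Retinoid handling outside the cycle was more even. Of 17 measured genes (Dhrs9 and Bco1 did not pass the background filter) limma called 0 in each comparison. In AAP against PBS 10 lay above and 7 below 0 (median 0.06), and in HAN against PBS 5 above and 12 below (median -0.04). Rbp4, the plasma retinol carrier that pairs with Ttr, stood 0.55 above the PBS mean in AAP 1 and -0.23 from it in HAN 3. AAP 1 was the highest array for 5 of the 17 genes.

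The melanin genes, which RPE cells share with melanocytes of the iris and choroid, differed from the visual cycle genes in AAP 1, where 8 of 11 lay below the PBS mean and 3 above it. The limma test called 0 of 11 in each comparison; 1 lay above and 10 below 0 in AAP against PBS (median -0.50), and 3 above and 8 below in HAN against PBS (median -0.18). Their mean stood at -0.45, -0.30 and -1.12 from the PBS mean in AAP 1, 2 and 3 and at -0.49, 0.60 and -0.90 in HAN 1, 2 and 3. In AAP 1, where Rpe65 stood at 1.27, the melanosome genes Pmel and Mlana stood at -1.58 and -1.44 and the enzyme Tyrp1 at -1.06. Gpr143, a receptor of the melanosome, went with the visual cycle genes in these pools, at 0.47 in AAP 1 and -0.85 in HAN 3. AAP 1 was the highest array for 2 of the 11 melanin genes and HAN 3 the lowest for 2. In HAN 3, 9 of 11 lay below the PBS mean and 2 above it, with Pmel at -1.73 and Tyrp1 at -1.72. HAN 2 was the highest of the 9 arrays for none of the visual cycle genes, and Mlana stood at 1.07 there.

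**Figure D4:**
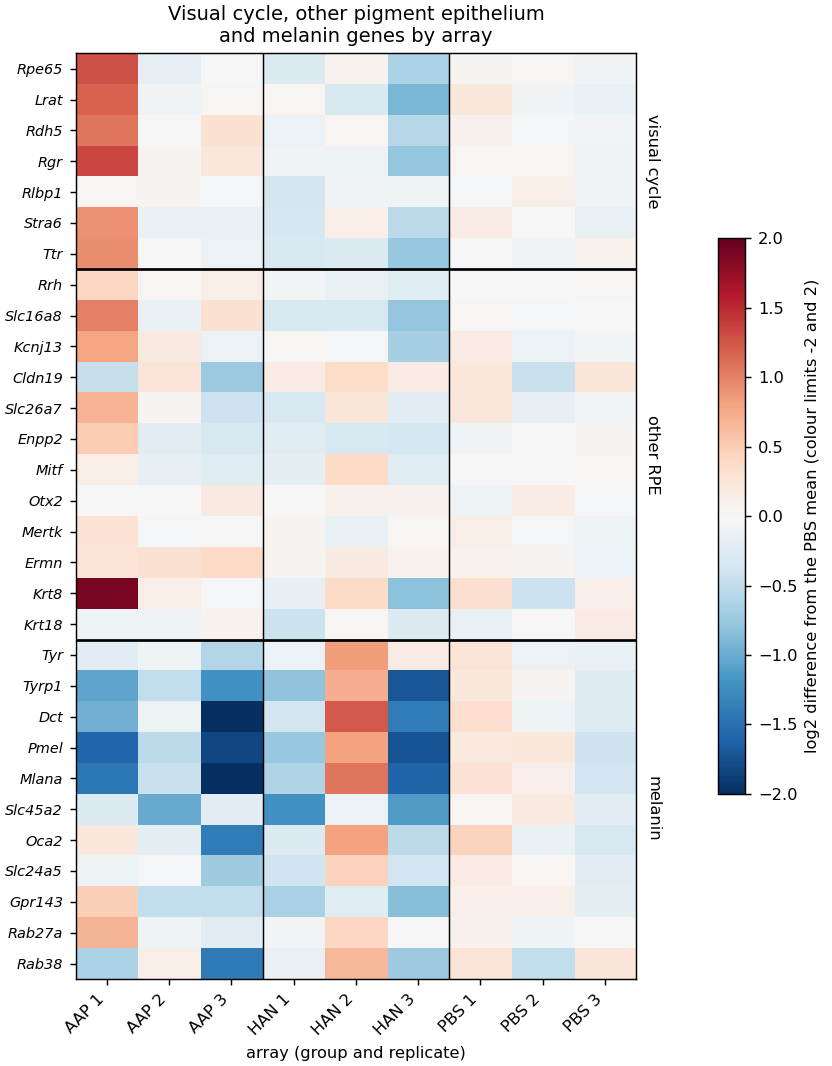
Log2 difference of each gene from its PBS mean (colour, limits -2 and 2, with Dct and Mlana beyond them in AAP 3) in the 9 arrays, for the 7 measured visual cycle genes, 12 other RPE markers that stand in no other list and 11 melanin genes. The AAP 1 column is red for the visual cycle genes other than Rlbp1 and blue for Tyrp1, Dct, Pmel and Mlana, while the HAN 3 column is blue for all 7 visual cycle genes, faintly for Rlbp1, and for 9 of 11 melanin genes.

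Markers of neighbouring tissues and of other cells varied between pools, AAP 1 among them, and their part in the results above was not tested. The 10 measured skeletal muscle markers of 13 on the array averaged 6.08, -0.34 and 4.73 above the PBS mean in AAP 1, 2 and 3, -0.02, -0.18 and -0.06 in HAN, and 0.31, -0.18 and -0.13 in PBS. Myh1, Myh2 and Ckm did not pass the background filter. In AAP 3, where muscle markers averaged 4.73, the 6 visual cycle genes averaged 0.05. The 9 measured cornea and conjunctiva markers of 11 (Krt4 and Upk1b did not pass the background filter) averaged 2.95, -0.79 and -1.98 in AAP, -0.65, -1.28 and -0.56 in HAN, and 1.95, -0.92 and -1.03 in PBS. In PBS 1, where they averaged 1.95, the 6 visual cycle genes averaged 0.09.

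The 14 lens markers averaged -1.47, 2.23 and -2.13 in AAP, 0.72, 1.53 and 1.25 in HAN, and 1.30, -2.24 and 0.94 in PBS. Ciliary body and iris markers (8 of 10 measured, without Otx1 and Des) averaged -0.79, -0.03 and -1.27 in AAP, -0.12, 0.37 and -0.28 in HAN, and 0.27, -0.26 and -0.01 in PBS. In HAN 3, the lowest array for the visual cycle genes, both means lay within the range of the other 8 arrays. For erythrocytes the 4 markers averaged 0.87, -0.84 and -0.85 in AAP, -0.15, -0.21 and -0.03 in HAN, and -0.08, -0.43 and 0.51 in PBS. The limma test called 0 genes of these 5 lists in each comparison. In AAP 1 the muscle, cornea and erythrocyte lists thus stood above the PBS mean and the lens and ciliary lists below it, alongside the higher visual cycle genes.

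Ttr is also made by the choroid plexus and the liver. Of 8 other genes of those tissues, Alb and Apoa1, plasma proteins of the liver, did not pass the background filter. The 6 that were measured averaged 0.13, 0.05 and -0.69 in AAP, 0.05, 0.16 and 0.08 in HAN, and 0.23, -0.17 and -0.06 in PBS, with 0 called in each comparison. Of the 14 Mueller glia markers, set beside Rlbp1 and Rgr because those cells express both, limma called 0 in each comparison, with medians of -0.11 in AAP and -0.02 in HAN against PBS. Glul, the glutamine synthetase of Mueller glia, differed by 0.18 in AAP and 0.08 in HAN, and the mean of the list lay between -0.28 (AAP 3) and 0.11 (PBS 1) on all 9 arrays. The 11 rod genes, the most numerous cells of the retina, averaged -0.16, -0.02 and 0.21 in AAP, -0.16, -0.12 and -0.21 in HAN, and -0.16, 0.10 and 0.06 in PBS, with 0 called in each comparison. At an unadjusted limma p under 0.05, AAP against PBS had 7 of 10 muscle genes, 2 of 14 Mueller glia genes and 1 each among other RPE markers, ciliary genes and rod genes. HAN against PBS had 2 of 11 rod genes and 1 each among photoreceptor cycle, other retinoid, melanin and ciliary genes. Between AAP and HAN there were 8 of 10 muscle genes, 3 of 14 other RPE markers, 2 of 17 other retinoid genes, 2 of 8 ciliary genes and 1 each among photoreceptor cycle, melanin, rod and other Ttr source genes. Over all genes, 6.78% in AAP against PBS, 9.67% in HAN against PBS and 8.53% in AAP against HAN had an unadjusted p under 0.05. The lists not named in a comparison had 0, and 3 genes each stand in 2 of the lists.

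The genes most like the cycle genes across pools were found by Pearson's r over the 9 arrays to the mean of Rpe65, Lrat, Rdh5 and Stra6, among 15145 candidate genes. They were Flvcr2 (r = 0.99), Hnf4a (0.97), Car12 (0.97), Fap (0.97) and Slc23a4 (0.97), all measured in the same 9 libraries. All were high in AAP 1 and low in HAN 3, an order that the choice by r over these arrays favours. Flvcr2 stood 1.07 above the PBS mean in AAP 1 and -0.54 from it in HAN 3, Hnf4a at 1.16 and -0.63, and Car12 at 1.59 and -0.56. Known RPE genes came up for single members: the lactate transporter Slc16a8 was among the nearest 3 genes for Rdh5 and Rgr (r = 0.97 each), the potassium channel Kcnj13 for Lrat (r = 0.96) and Rrh for Rgr (r = 0.96). Other near genes were Flvcr2 for Rpe65, Rgr and Stra6, Ino80c and Slc23a4 for Rpe65, Sema4a and Slc7a10 for Lrat, Hnf4a and Fap for Rdh5, and Nadk, Lman2 and Fap for Ttr. For Rlbp1 the nearest genes were Fbxo24 (r = 0.91), Tmem100 (0.90) and Ndufa3 (0.90), none of which was among the nearest of another member.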

How the data were processed

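Retinal RNA was labelled with Cy3 and hybridised to 9 arrays, per the labels' protocols. The authors deposited scanner output; its processed signal is a linear intensity, quantified with Feature Extraction 11.0.1.1 (protocol GE1_1100_Jul11), background-subtracted and detrended within each array, on a design annotated on mm9, per the file headers. The authors' deposited value table equalled the mean processed signal of a probe's spots for at least 99.7% of probes on each array (relative tolerance 0.0001), so it is linear and not normalised between arrays. Its column medians were 265.5, 237.6 and 164.7 in AAP, 251.1, 242.5 and 296.5 in HAN, and 298.3, 256.4 and 231.9 in PBS (replicates 1, 2 and 3 each).

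Of 44397 spots, 43020 were not controls; 103 to 160 outlier spots an array were left out, and no spot was saturated. Processed signal was divided by the array's 75th percentile, log2-transformed and averaged over the spots of a probe. Probes were named by transcript accession through a RefSeq table of GRCm38.p6, which matched 26055 of 39429 probes to 19751 symbols; no gene coordinates were taken from it. A gene stood by its brightest probe well above background on all arrays of at least 1 group.

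limma 3.58.1 (R 4.3.3; lmFit and eBayes, two-sided) fitted a mean per group over all 9 arrays, with Benjamini-Hochberg adjustment over 23862 genes, a threshold of 0.05, 6 residual and 1.85 prior degrees of freedom. The fit was tested on simulated data. Correlations and single-gene permutation tests used scipy 1.17.1 and enumerated all arrangements.

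The members and the gene lists were chosen with earlier results of these data known. By rule, all 8 members were named; from each list the first 2 measured genes and up to 2 with the smallest p in each comparison with PBS could be named, of which the text gives those its results turn on; and the genes of nearest likeness were the 5 of highest r to the mean of Rpe65, Lrat, Rdh5 and Stra6 and the 3 of highest r to each member. A few genes that these rules take are not reported here. A set of 19 alternatives was run, covering background correction, normalisation, filters, probe choice, slide, replicate number and left-out arrays; 1 of them, leaving out AAP 1 and HAN 3 together, was chosen after seeing the data. The normexp alternative used the median signal of a spot, since the files hold no mean signal.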

Additional observations from a re-analysis of the deposited data

Results flagged for a closer look

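Rgr, the retinal opsin of the pigment epithelium and Mueller glia, drew attention because every AAP array stood above its PBS mean and every HAN array below it. The difference of AAP from HAN was 0.85 on the log2 scale, and limma did not call it (adjusted p = 0.574). AAP 2 and AAP 3 stood at 2.26 and 2.43 and HAN 1 and HAN 2 at 2.14 and 2.11, against a PBS mean of 2.21, so the widest gaps were those of AAP 1 at 3.55 and HAN 3 at 1.43. Within slide 2, which holds AAP 2, AAP 3, HAN 1 and HAN 2, the difference was 0.22.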

How the results depend on the processing

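The limma test called 0 of 7 measured genes in HAN against PBS and in AAP against HAN under all 19 alternatives (0 of 8 with no filter on dim probes, which adds Best1), and 0 of 7 in AAP against PBS under all but 1: with slide as a fixed block, where AAP 1 alone carries the difference, 2 were called (Rgr and Ttr). Leaving out 1 array at a time left the count of called members at 0 in all 3 comparisons. Directions of single genes turned under few settings. Without AAP 1, alone or with HAN 3, AAP against PBS stood at -0.089 for Rpe65, -0.020 for Lrat, -0.13 for Stra6 and -0.055 for Ttr, and without PBS 3 Rlbp1 stood at -0.016. With 1 array left out at a time, the highest values of these 5 genes were 0.63 (Rpe65, without AAP 2), 0.60 (Lrat, without AAP 2), 0.39 (Stra6, without AAP 3), 0.46 (Ttr, without AAP 3) and 0.080 (Rlbp1, without PBS 2). With slide as a fixed block, HAN against PBS stood at 1.25 for Rpe65, 1.07 for Lrat, 0.87 for Rdh5, 1.12 for Rgr, 0.94 for Stra6 and 0.69 for Ttr; HAN and PBS share no slide, so this difference is chained through AAP 1. Stra6 in AAP against HAN stood at -0.026 both with that block and without AAP 1 and HAN 3 together, against 0.65 without HAN 2. The normexp correction moved the median of all genes to 0.15 in HAN against PBS and -0.13 in AAP against HAN, and turned no member. Deviations of same-numbered arrays correlated at -0.28 to 0.40, within the -0.62 to 0.54 of arrays with unlike numbers. Such values, from 3 arrays a group, cannot settle whether the numbers pair the pools. With the replicate number as a block 0 members were called in each comparison. In AAP against HAN 4 of 7 members then had an unadjusted limma p under 0.05, where 1761 of 23862 genes did, against 3 of 7 members without the block. The count of called genes over all genes was 0, against 1 without the block, in both comparisons with PBS. Over all genes and alternatives, calls numbered 0 to 45 in AAP against PBS (45 with slide as a fixed block, 42 without AAP 2), 0 to 10 in HAN against PBS (10 without HAN 1) and 0 to 27 in AAP against HAN (27 without AAP 2), beside 1, 1 and 0 in the fit reported here.

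The limits are those of 3 pools a group. Intervals spanned about 0.8 log2 units to either side for Rpe65, Lrat and Rgr, so smaller differences could not be told from the spread between pools. The Best1 probe was not above background and leaves that gene unmeasured, and the 7 others rest on 1 probe each.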

Other observations

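Genes known from the pigment epithelium differed in how closely they followed the visual cycle genes across the 9 pools, and this was read from the values after they were seen. Slc16a8, the basolateral lactate transporter, stood 1.00 above the PBS mean in AAP 1 and -0.79 from it in HAN 3. Kcnj13, an apical potassium channel, stood at 0.79 in AAP 1 and -0.66 in HAN 3. Both were thus high and low in the same pools as Rpe65 and Rgr, while Cldn19, a tight junction gene of the same list, stood at -0.46 in AAP 1 and 0.16 in HAN 3. Among melanosome genes Gpr143 was high in AAP 1 (0.47) and low in HAN 3 (-0.85), and Mlana stood at -1.44 in AAP 1, 1.07 in HAN 2 and -1.60 in HAN 3. In AAP 3 the visual cycle genes other than Rlbp1 averaged 0.05 while Mlana stood at -2.20 and Pmel at -1.81. Aldh1a1, a retinaldehyde dehydrogenase also known from the lens, stood at -1.61, -0.05 and -0.98 in AAP, 0.38, 0.84 and -0.19 in HAN, and 0.84, -0.94 and 0.10 in PBS. Its highest arrays were HAN 2 and PBS 1 and its lowest was AAP 1, the pool in which the visual cycle genes stood highest.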
